A study of Caenorhabditis elegans with 36 samples.

Results

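Hourly libraries of wild-type C. elegans covered the end of the third larval stage and the fourth. In them, 25 of 244 tested miRNA strands passed a test for a 7 h rhythm at an adjusted p under 0.01. The 2 largest amplitudes among these 25 were those of passenger strands of the developmental timing miRNAs. The passenger let-7-3p changed 18.8-fold between its fitted peak and trough and lin-4-3p changed 10.3-fold. Their more abundant partners let-7-5p and lin-4-5p were not called in that test, although a DESeq2 likelihood ratio test called lin-4-5p. Among the abundant guide strands, miR-235-3p changed 9.80-fold and miR-71-5p changed 3.52-fold. These values come from the 11 hourly small RNA libraries of wild-type N2 animals (WT) collected from 25 to 35 h after plating. They are 11 of the 36 libraries of the series, chosen by strain and hour alone.

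The series sampled WT and ebax-1(tm2321) cultures every hour from 25 to 42 h at 25 °C, and asked which miRNAs depend on EBAX-1, a factor of miRNA decay. The mutant libraries were not used here. All WT libraries came from N2 hermaphrodites that had been synchronized as starved first-stage larvae and plated on bacterial food, with no transgene or drug. The span from 25 h covers the end of the third larval stage and the fourth (L4), and the 7 WT libraries from 36 to 42 h, around and after the molt to the adult, serve as the comparison. Each hour is 1 library from a pool of whole animals, so there are no replicates of an hour, and p-values measure the scatter of hourly values around a smooth curve. In whole animals, fewer cells that make a miRNA and less of it per cell cannot be told apart.

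A miRNA is cut as a duplex from a hairpin precursor. One strand, the guide, is kept by an Argonaute protein and represses mRNAs, and the other, the passenger, is mostly discarded, so passengers are usually scarce and short-lived. Many C. elegans mRNAs oscillate once per larval stage, in step with the molting cycle. The timing miRNAs lin-4 and let-7 drive transitions between larval stages. lin-4 represses early larval genes and let-7 promotes the change from larva to adult.

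Counts covered 437 mature strands, and the 244 with a mean of at least 10 counts over the 11 libraries were tested, while 193 were left out, 54 of them with no count in any of the 11. Library totals ran from 2832088 counts at 25 h to 5579822 at 26 h. Levels are counts scaled to a common library size (CPM, counts per 1000000) after TMM normalization, which corrects for differences in composition between libraries. Per strand, a cosine and a sine with a period of 7 h and a straight line in time were fitted to the counts. The amplitude is the fitted height of the peak above the curve's midline in log2 units, the peak time is given once, between 25 and 32 h, and the slope is in log2 units per h. Errors are standard errors of the fit with 7 residual degrees of freedom. A strand is called rhythmic at an edgeR quasi-likelihood adjusted p (Benjamini-Hochberg over all 244) under 0.01. The more abundant strand of a hairpin over the 11 libraries is called its guide, as is a strand whose partner did not pass the filter, which gave 155 guides and 89 passengers. By this rule miR-42-5p, miR-41-5p, miR-788-3p, miR-241-3p, miR-49-5p and miR-790-3p are guides, although the study modelled the other strand of their hairpins as the guide. In the let-7 family this places miR-241-5p among the passengers.

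At this threshold 25 of 244 strands (10.2%) were rhythmic, among them 17 of 155 guides (11%) and 8 of 89 passengers (8.99%). A looser adjusted p of 0.05, chosen after seeing the data, gave 70 strands (28.7%). The median amplitude over all strands was 0.23, with 0.20 over guides and 0.30 over passengers, and the median SE was 0.08 over guides and 0.11 over passengers. Of the 5 called strands with an amplitude over 1, 2 were guides, miR-235-3p and miR-42-5p, and 3 were passengers, let-7-3p, lin-4-3p and miR-237-3p. The count depended on single libraries. Without the 26, 27, 29, 30, 31, 32 or 34 h library it was 10, 16, 14, 8, 9, 11 and 14, in that order of hours. The 7 strands miR-36-3p, miR-788-3p, let-7-3p, lin-4-3p, miR-237-3p, miR-45-5p and miR-228-3p were called whichever of the 11 libraries was left out, and 5 of these 7 are passengers. miR-71-3p was kept in 10 of the 11 fits, miR-239a-3p in 9 and miR-42-5p in 8.

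**Figure D1:**
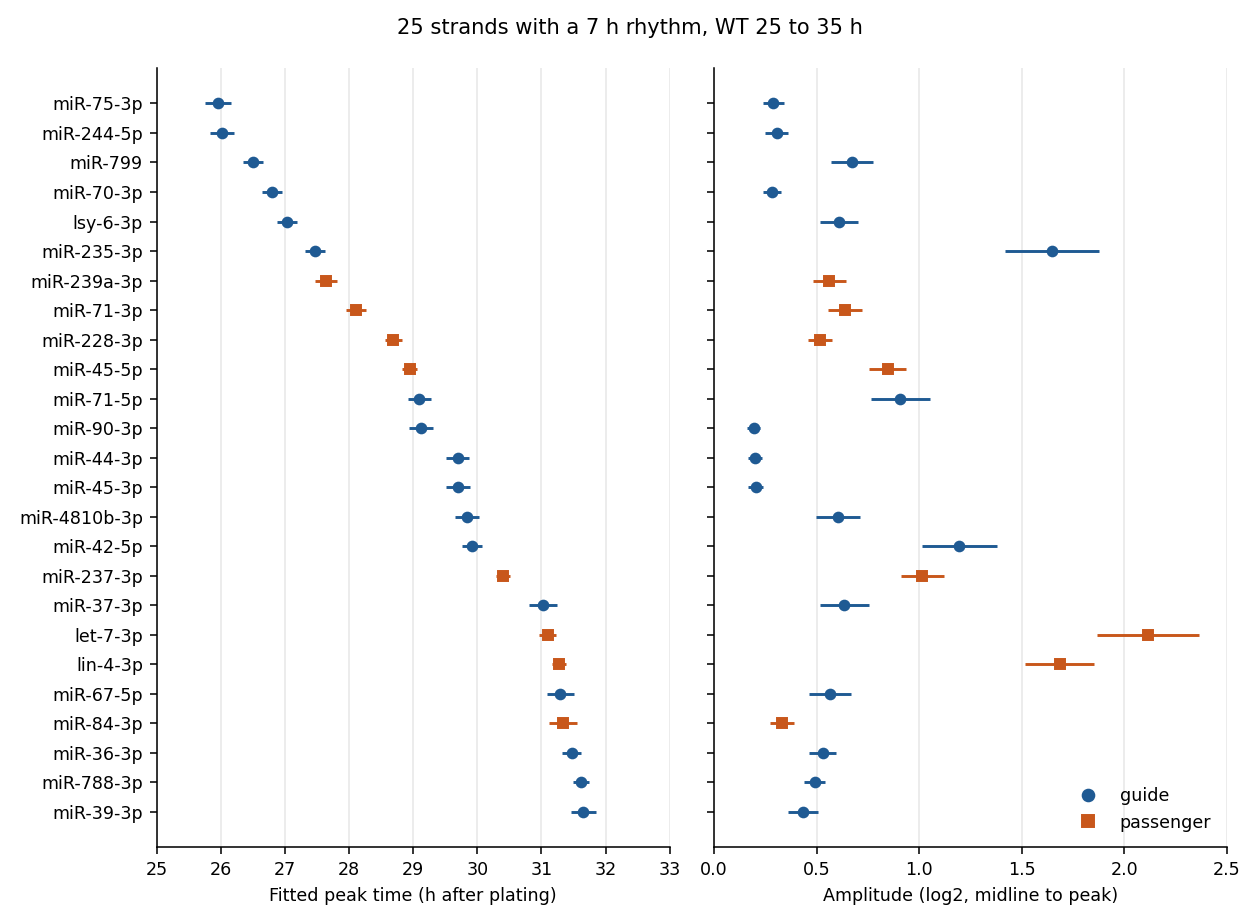
Fitted peak time (left, h after plating) and amplitude (right, log2 units, midline to peak) of the 25 rhythmic strands in WT from 25 to 35 h, ordered by peak time, guides as circles and passengers as squares, with bars for 1 SE. Peaks run from 26.0 h for miR-75-3p to 31.7 h for miR-39-3p, and let-7-3p has the largest amplitude.

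Fitted peaks of 4 of the 25 called strands, all guides, fell from 25 to 27 h, beside 62 of all 244 strands. From 27 to 29 h there were 6, beside 67 of all strands, and from 29 to 31 h 7, beside 82. The last span, from 31 to 32 h, is only 1 h wide and held 8 called strands, beside 33 of all strands. Strands peaking before 28 h had both of their expected peaks inside the sampled hours, and later ones had 1, so for most strands a rhythm here means 1 peak with falling or rising flanks. The window holds little more than 1 cycle and cannot fix the period. A period of 6 h gave no rhythmic strand in the same edgeR test (47 at an unadjusted p under 0.05), 8 h gave 44, and 9 h, added after seeing the data, gave 57.

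The passengers let-7-3p and lin-4-3p had the largest amplitudes among the called strands. let-7-3p, the passenger of the let-7 hairpin (the annotated gene lies on chromosome X, 14743590 to 14745321, WBcel235, and overlaps an exon of C05G5.7), had 64.8, 16.3, 14.9, 11.7, 41.2, 233, 225, 261, 187, 36.6 and 24.4 CPM at the 11 hours from 25 to 35 h. It was low from 26 to 28 h, stood high from 30 to 33 h, and was back near its level of 29 h at 34 h. The fit gave an amplitude of 2.12 ± 0.25 with a peak at 31.1 ± 0.13 h (adjusted p = 0.0011) on a rising trend of 0.28 ± 0.06 log2 units per h (adjusted p = 0.0026). Its amplitude was 1.94 to 2.33 when each library was left out in turn.

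lin-4-3p, the passenger of lin-4 (chromosome II, 5902254 to 5902347, in an intron of F59G1.4 on the same strand), had 34.8, 14.9, 7.21, 4.72, 13.8, 57.6, 73.1, 65.2, 50.2, 23.1 and 9.40 CPM from 25 to 35 h. It fell through 28 h, was highest at 31 h and fell again, with low values at 28 h and at 35 h, the last hour of the window, when it was still falling. The amplitude was 1.68 ± 0.17 and the peak 31.3 ± 0.11 h (adjusted p = 0.0004), next to that of let-7-3p. miR-237-3p, the passenger of the lin-4 paralog miR-237 (chromosome X, 8154084 to 8154182, intergenic), peaked slightly earlier, at 30.4 ± 0.11 h, with an amplitude of 1.01 ± 0.11 (adjusted p = 0.0004). It ran at 51.4 to 55.6 CPM from 26 to 28 h, and reached 248 CPM at 30 h. miR-84-3p, the passenger of the let-7 family member miR-84, had 229 CPM at 28 h as its lowest, 294 CPM as its median and 409 CPM at 31 h as its highest, with an amplitude of 0.33 ± 0.06 and a peak at 31.3 ± 0.21 h (adjusted p = 0.0086). Its call was lost without the 25, 26, 27, 28, 29, 30, 31, 32 or 34 h library (amplitude 0.30 to 0.42).

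In these 2 families, 0 of 9 guides were rhythmic by the edgeR test, beside 11% of all guides, and 4 of 7 passengers were (2 of 5 in the let-7 family, 2 of 2 in the lin-4 family), beside 8.99% of all passengers. At an unadjusted p under 0.05 5 of the 9 guides passed, beside 66 of all 155 guides. The DESeq2 likelihood ratio test called 5, beside 57 of all 244 strands. Median guide amplitudes were 0.13 in the let-7 family and 0.29 in the lin-4 family, beside 0.20 over all guides. let-7-5p, which acts in the late larva, held its level from 25 to 29 h (29482 CPM at 25 h and 29766 CPM at 29 h), was at 45632 CPM at 30 h and ended at 57341 CPM at 35 h. It rose by 0.12 ± 0.01 log2 units per h (adjusted p = 5.96e-05), with an amplitude of 0.13 ± 0.06 (adjusted p = 0.27). That amplitude was 0.08 without the 29 h library, 0.25 without the 32 h library and 0.21 under library totals, never past the threshold. lin-4-5p had 449 CPM at 29 h as its lowest, 587 CPM as its median and 903 CPM at 32 h as its highest, and its amplitude of 0.31 ± 0.07 missed the threshold (adjusted p = 0.016) but passed by the DESeq2 likelihood ratio test. For miR-237-5p the amplitude was 0.26 ± 0.06 (adjusted p = 0.017), and for miR-84-5p 0.23 ± 0.05 (adjusted p = 0.024). Both were called under library totals, by limma and by the DESeq2 likelihood ratio test, miR-237-5p also with DESeq2 size factors and miR-84-5p also with periods of 8 and 9 h.

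**Figure D2:**
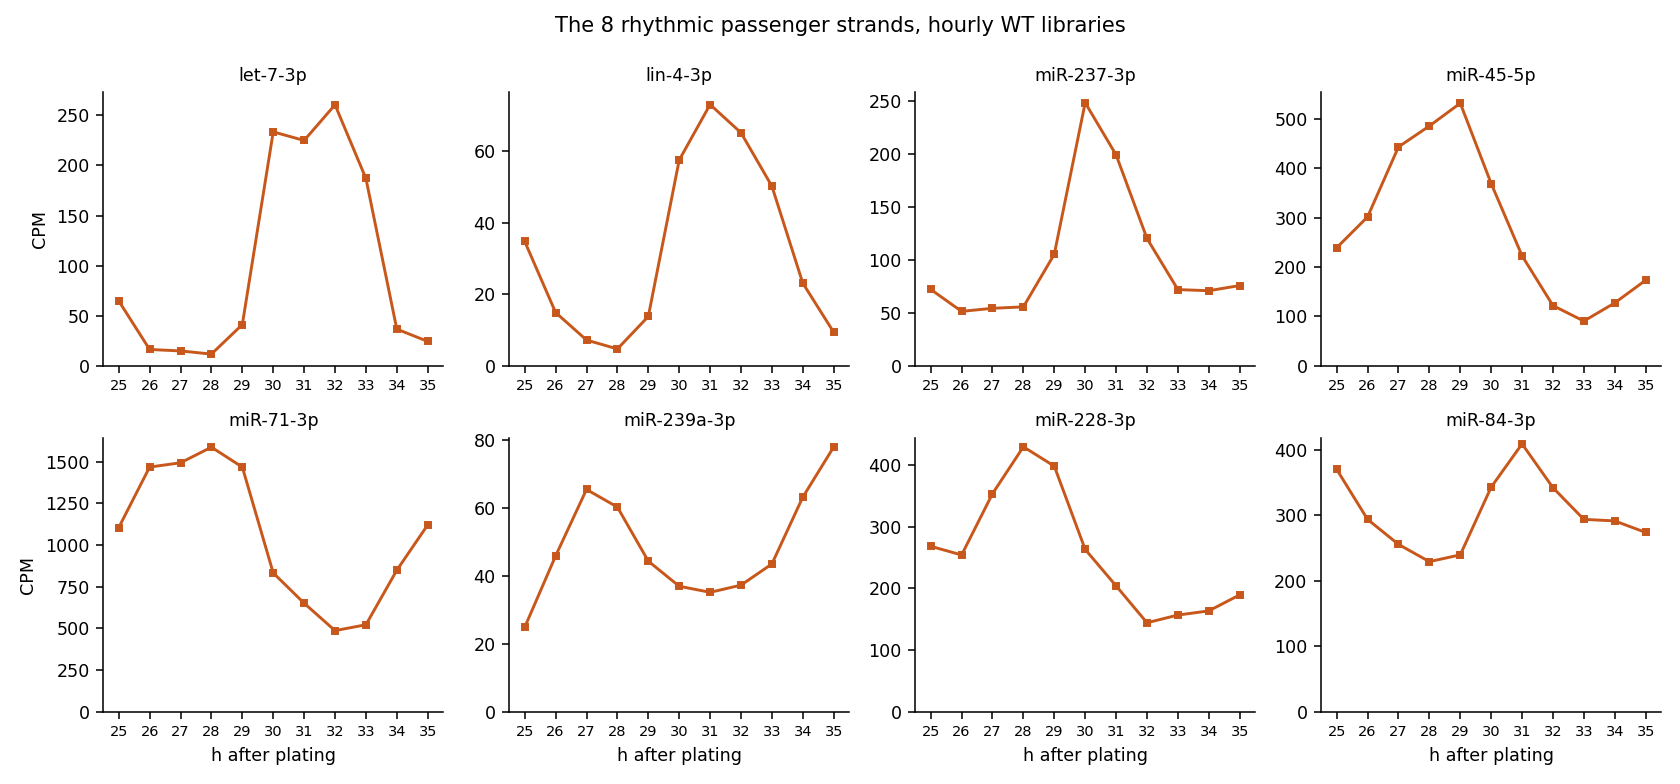
CPM (linear axes from 0, scaled per panel) of the 8 rhythmic passenger strands at each hour after plating, 1 WT library per point. let-7-3p, lin-4-3p, miR-237-3p and miR-84-3p are highest from 30 to 32 h, while miR-45-5p, miR-71-3p and miR-228-3p are highest at 28 or 29 h and lowest at 32 or 33 h.

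A second group of passengers peaked near 28 to 29 h. miR-45-5p (chromosome II, 11880944 to 11881039, intergenic) had 239, 302, 443, 486, 532, 369, 223, 122, 90.6, 127 and 173 CPM from 25 to 35 h. It was highest at 29 h, lowest at 33 h and recovering by 35 h. The amplitude was 0.85 ± 0.09 with a peak at 28.9 ± 0.12 h (adjusted p = 0.00045) on a falling trend of -0.21 ± 0.02 log2 units per h (adjusted p = 1.57e-05). miR-228-3p (chromosome IV, 5562025 to 5562122, intergenic) had 144 CPM at 32 h as its lowest, 254 CPM as its median and 429.9 CPM at 28 h as its highest, with an amplitude of 0.52 ± 0.06 and a peak at 28.7 ± 0.13 h (adjusted p = 0.00067). It too lay on a falling trend, of -0.14 ± 0.01 log2 units per h. miR-239a-3p had 24.8 CPM at 25 h as its lowest, 44.2 CPM as its median and 77.8 CPM at 35 h as its highest. It was high at 27 and 28 h and again at 34 and 35 h, with lower values from 30 to 32 h. Its amplitude was 0.56 ± 0.08 with a peak at 27.6 ± 0.17 h (adjusted p = 0.003), and the call was lost without the 30 or 32 h library (amplitude 0.53 to 0.57).

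Among the guides, the strongest rhythm was that of miR-235-3p, the worm counterpart of miR-92, which is known for holding progenitor cells of starved larvae in quiescence (chromosome I, 6162291 to 6162387, intergenic). It had 10029, 17281, 20225, 19876, 15873, 3573, 3296, 2503, 12182, 28024 and 36475 CPM from 25 to 35 h. A plateau from 26 to 29 h was followed by a drop within 1 h, a low stretch from 30 to 32 h and a climb to its highest value at 35 h. The amplitude was 1.65 ± 0.23 and the peak 27.5 ± 0.16 h (adjusted p = 0.0044), and the residual scatter, with an SD of 0.64 log2 units, was among the widest of the called strands, next to 0.66 for let-7-3p. The call was lost without the 26, 30, 31, 32 or 34 h library (amplitude 1.42 to 1.67). Its passenger miR-235-5p averaged 3.38 CPM, with as few as 1 count in a library. It was lowest at 30 h and highest at 34 h, with an amplitude of 1.69 ± 0.48 and a peak at 26.1 ± 0.25 h (adjusted p = 0.039), and the call was gained without the 25 h library (amplitude 1.84).

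miR-71 (chromosome I, 9379927 to 9380020, intronic to ppfr-1 and in its orientation), a miRNA known for its roles in adult lifespan and stress resistance, was rhythmic in both strands. The guide miR-71-5p had 22462, 35823, 61064, 67154, 80791, 60065, 39387, 24769, 13880.3, 18812 and 32859 CPM from 25 to 35 h, with a smooth rise to 29 h, a fall to 33 h and a recovery. The amplitude was 0.91 ± 0.14 for miR-71-5p with a peak at 29.1 ± 0.18 h (adjusted p = 0.0044), and 0.64 ± 0.08 for miR-71-3p with a peak at 28.1 ± 0.16 h (adjusted p = 0.0018). The call of miR-71-5p was lost without the 26, 28, 29, 30, 31 or 33 h library (amplitude 0.85 to 0.94), and that of miR-71-3p without the 32 h library (amplitude 0.55). miR-71-3p ranged from 486 CPM at 32 h to 1587 CPM at 28 h. Both strands fell over the window, by 0.14 log2 units per h each. Its genomic neighbour miR-2, within 10 kb on the same strand, was rhythmic in neither strand, with amplitudes of 0.36 for miR-2-3p (adjusted p = 0.093) and 0.34 for miR-2-5p (adjusted p = 0.025).

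The guide miR-788-3p (chromosome X, 8485294 to 8485371, intergenic) held the smallest SE relative to its amplitude among the guides. It had 715, 581, 445, 416, 384, 567, 741, 795, 565, 466 and 393 CPM from 25 to 35 h. High values at 25 h and from 31 to 32 h bracketed a low of 384 CPM at 29 h. The amplitude was 0.49 ± 0.05 with a peak at 31.6 ± 0.12 h (adjusted p = 0.0004) and a slope of 0.01 ± 0.01 log2 units per h (adjusted p = 0.62). The partner strand miR-788-5p instead fell by 0.31 ± 0.05 log2 units per h (adjusted p = 0.0013), most of it after 32 h, from 379.6 CPM at 32 h to 58.7 CPM at 35 h, with an amplitude of 0.38 ± 0.24 (adjusted p = 0.42).

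The miR-35 family, known for its essential role in embryos, is encoded by the cluster from miR-35 to miR-41 (chromosome II, 11537608 to 11538404, antisense to Y62F5A.9 and inside one of its introns) and by miR-42 (chromosome II, 11889811 to 11889905), clustered with miR-43 and miR-44. From the 7 hairpins of the miR-35 to miR-41 cluster, 3 of 7 guides and 0 of 4 passengers passed the edgeR test, beside 11% of all guides and 8.99% of all passengers. The 3 were miR-36-3p, miR-37-3p and miR-39-3p. The median amplitude was 0.57 over the 7 guides and 0.64 over the 4 passengers, beside 0.20 over all guides and 0.30 over all passengers. The 4 guides not called had amplitudes of 0.50 to 0.71 at adjusted p of 0.012 to 0.024, close to the threshold. At an unadjusted p under 0.05, 3 of the 4 passengers passed, beside 42 of all 89 passengers. The DESeq2 likelihood ratio test called 2, beside 57 of all 244 strands.

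All 11 strands of the cluster peaked late, from 30.1 to 31.7 h by the fitted curves. miR-36-3p had 1284, 982, 713, 752, 699, 929, 1169, 1245, 876, 614 and 444 CPM from 25 to 35 h, high at 25 h and again at 31 and 32 h, and lowest at 35 h. Its amplitude was 0.53 ± 0.06 with a peak at 31.5 ± 0.14 h (adjusted p = 0.00086). miR-37-3p had 162 CPM at 35 h as its lowest, 367 CPM as its median and 608 CPM at 31 h as its highest, with an amplitude of 0.64 ± 0.12 (adjusted p = 0.01), lost without the 26, 27, 28, 29, 30, 31, 32 or 34 h library (amplitude 0.59 to 0.73). miR-39-3p had 318 CPM at 35 h as its lowest, 552 CPM as its median and 802 CPM at 31 h as its highest, with an amplitude of 0.43 ± 0.07 (adjusted p = 0.0044), lost without the 27, 29, 30, 31, 32 or 34 h library (amplitude 0.39 to 0.46). The fitted peak of miR-39-3p was at 31.7 ± 0.20 h, against 30.6 ± 0.24 h for its passenger miR-39-5p, a difference that was not tested. miR-39-5p was highest at 30 h (52.2 CPM) and back at 15.5 CPM at 33 h, with an amplitude of 0.74 ± 0.16 (adjusted p = 0.015).

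**Figure D3:**
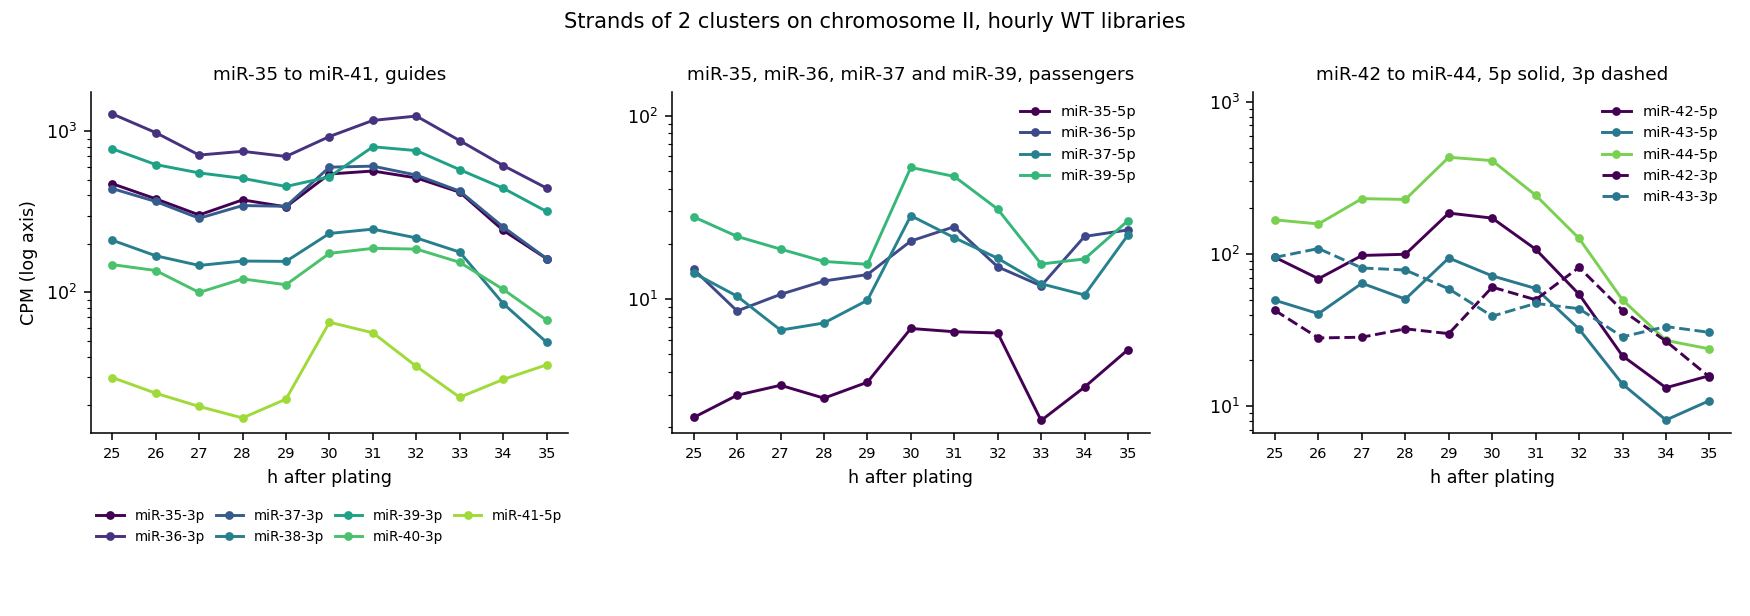
CPM (log axes) at each hour after plating, 1 WT library per point, of guides (left) and passengers (middle) of the miR-35 to miR-41 cluster and of strands of the miR-42 to miR-44 cluster (right, 5p strands solid, 3p strands dashed). The 6 guides of the first cluster that are 3p strands are above their medians at 25, 31 and 32 h and lowest at 35 h, and the 3 5p strands of the second cluster rise to 29 h and then fall by 33 h, with miR-42-5p from 186 CPM at 29 h to 21.4 CPM at 33 h.

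In the miR-42 to miR-44 cluster, miR-42-5p had 95.0, 68.8, 97.8, 99.6, 186, 172, 107, 54.3, 21.4, 13.2 and 15.9 CPM from 25 to 35 h, an amplitude of 1.19 ± 0.18 and a peak at 29.9 ± 0.16 h (adjusted p = 0.003), on a falling trend of -0.29 ± 0.04 log2 units per h (adjusted p = 0.00028). Its call was lost without the 26, 30 or 31 h library (amplitude 1.16 to 1.21). miR-43-5p and miR-44-5p had fitted peaks at 29.9 and 30.0 h, with amplitudes of 0.94 ± 0.20 (adjusted p = 0.013) and 1.22 ± 0.25 (adjusted p = 0.01), neither past the threshold. miR-44-5p gained the call without the 25, 27 or 35 h library (amplitude 1.21 to 1.37). miR-42-3p, the strand with the miR-35 family seed, had 15.6 CPM at 35 h as its lowest, 32.2 CPM as its median and 81.6 CPM at 32 h as its highest, with an amplitude of 0.72 ± 0.17 and a peak at 31.2 ± 0.26 h (adjusted p = 0.021), later than miR-42-5p and close to the strands of the miR-35 to miR-41 cluster. miR-44-3p and miR-45-3p are known to share the same mature sequence, so their counts can share reads. The counts kept nearly the same proportion in all 11 libraries, from 122212 and 41935 at 25 h to 80330 and 27598 at 35 h. Their calls are therefore not independent, though both count among the called guides. They averaged 33107 CPM (miR-44-3p) and 11359 CPM (miR-45-3p), both had an amplitude of 0.20 and both peaked at 29.7 h (adjusted p = 0.0074 for miR-44-3p and 0.0089 for miR-45-3p). Their calls were lost in 9 of the 11 fits with 1 library left out, without the 26, 27, 28, 29, 30, 31, 32, 33 or 34 h library for miR-45-3p (amplitude 0.19 to 0.22).

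The remaining called guides were smaller or rarer. lsy-6-3p, known for setting the identity of a single taste neuron, had 8.19 CPM at 30 h as its lowest, 15.5 CPM as its median and 23.3 CPM at 26 h as its highest. Its amplitude was 0.61 ± 0.09 with a peak at 27.0 ± 0.16 h (adjusted p = 0.004), and the call was lost without the 26, 30, 31, 32 or 34 h library (amplitude 0.54 to 0.63). miR-799 had 13.6 CPM at 30 h as its lowest, 26.5 CPM as its median and 55.3 CPM at 34 h as its highest, an amplitude of 0.67 ± 0.10 and a peak at 26.5 ± 0.15 h (adjusted p = 0.0044), lost without the 26, 29, 30, 31, 32 or 34 h library (amplitude 0.60 to 0.70). miR-67-5p peaked at 31.3 ± 0.21 h, with 54.9 CPM at 35 h as its lowest, 99.7 CPM as its median and 156 CPM at 31 h as its highest. Its amplitude was 0.56 ± 0.10 (adjusted p = 0.0098), and the call was lost without the 25, 26, 27, 28, 29, 30, 31, 32 or 34 h library (amplitude 0.54 to 0.66). The guides with the earliest peaks had smaller amplitudes. miR-244-5p had an amplitude of 0.31 ± 0.06 with a peak at 26.0 ± 0.19 h (adjusted p = 0.0089, lost without the 26, 27, 28, 29, 30, 31, 33 or 34 h library (amplitude 0.28 to 0.34)), and miR-75-3p had 0.29 ± 0.05 with a peak at 26.0 ± 0.20 h (adjusted p = 0.0096, lost without the 25, 26, 27, 28, 29, 30, 31, 32, 33 or 34 h library (amplitude 0.25 to 0.32)). miR-70-3p (peak 26.8 h) and miR-90-3p (peak 29.1 h), both abundant guides, had amplitudes of 0.28 and 0.19. miR-70-3p was called in 5 and miR-90-3p in 4 of the 11 fits with a library left out. The rarest called strand, miR-4810b-3p, averaged 4.57 CPM and was called in 1 of the 11 fits with a library left out.

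The 2 strands of a hairpin come from the same precursor, so their ratio shows whether they follow the same course. The log2 ratio of guide to passenger (scaled counts plus a pseudocount of 8) was fitted with the same curve in 89 hairpins with both strands kept, and its rhythm was tested with limma. It passed an adjusted p of 0.01 in 8 hairpins (8.99%), namely miR-235, miR-237, lin-4, miR-45, miR-84, let-7, miR-42 and miR-228. In 7 of these 8 the passenger had the larger amplitude, in miR-42 the guide. In miR-235 that order is within the errors, with 1.69 ± 0.48 for the passenger and 1.65 ± 0.23 for the guide. Over all 89 hairpins the passenger had the larger amplitude in 59 (66.3%). Guides had a median of 926 CPM and their passengers, whose amplitudes had wider errors, a median of 48.3 CPM. Among the 42 hairpins with a passenger of at least 50 CPM the share was 64.3% (27 of 42), with median amplitudes of 0.20 in guides and 0.28 in passengers. Errors in this subset were still wider in passengers (median SE 0.08) than in guides (0.05), so the floor of 50 CPM does not remove that difference.

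**Figure D4:**
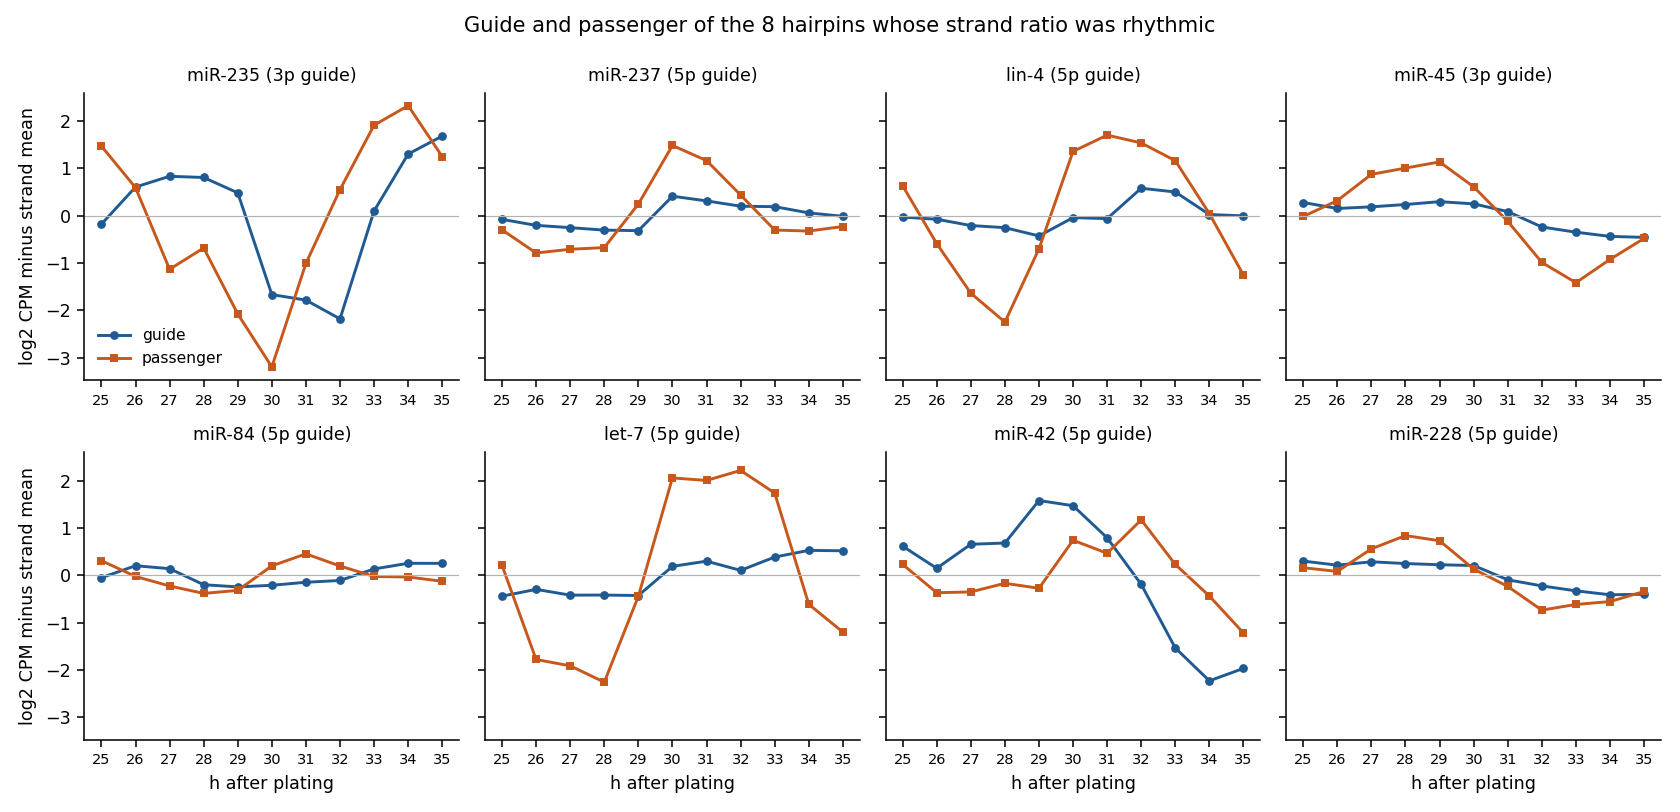
Log2 CPM minus the strand's own mean over the 11 WT libraries, against hours after plating, for guide (circles) and passenger (squares) of the 8 hairpins whose strand ratio was rhythmic. In let-7, lin-4, miR-237, miR-45 and miR-228 the passenger swings more than the guide, and in miR-235 the guide follows the passenger with a delay of 1.32 ± 0.30 h by the fitted peaks.

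The let-7 ratio had the largest fitted amplitude, at 1.91 ± 0.26 (limma adjusted p = 0.00096). Its log2 ratio of let-7-5p to let-7-3p was 11.10 at 28 h and 7.36 at 32 h. For lin-4 the log2 ratio was 6.25 at 28 h and 2.95 at 31 h, with an amplitude of 1.38 ± 0.16 (adjusted p = 0.00049), so that the passenger came closest to the guide while it peaked. The miR-235 ratio was 12.78 at 27 h and 9.0 at 32 h, with an amplitude of 1.59 ± 0.16 (adjusted p = 0.00033). Its passenger has few counts, and with a pseudocount of 1 the amplitude was 1.90. The miR-237 ratio had an amplitude of 0.79 ± 0.08 (adjusted p = 0.00033), the miR-45 ratio 0.70 ± 0.08 (adjusted p = 0.0006), and the miR-84 ratio 0.47 ± 0.06 (adjusted p = 0.00096). The guide counts of miR-45 can include reads from miR-44.

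In miR-42 the more abundant strand itself changed within the window. The log2 ratio of miR-42-5p to miR-42-3p was 2.55 at 29 h and -0.93 at 33 h, that is, 5p exceeded 3p until 31 h and 3p exceeded 5p from 32 to 34 h, with 0.02 at 35 h. Its ratio amplitude was 1.07 ± 0.15 (adjusted p = 0.0012), and the call was lost without the 29 h library (amplitude 0.96). The miR-228 ratio amplitude was 0.40 ± 0.06 (adjusted p = 0.0036), lost without the 28, 29 or 32 h library (amplitude 0.37 to 0.39). The miR-71 ratio was not called, with an amplitude of 0.72 ± 0.19 (adjusted p = 0.046).

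Only 2 hairpins, miR-71 and miR-45, had both strands called rhythmic. In each, the guide's fitted peak came after the passenger's, by 0.98 ± 0.24 h in miR-71 and 0.76 ± 0.23 h in miR-45. The same delay was 0.95 ± 0.27 h in lin-4, 0.70 ± 0.27 h in miR-237 and 1.32 ± 0.30 h in miR-235, where 1 of the strands was not called. In miR-42, miR-67, miR-239a and miR-44 the order was the opposite, with -1.24 ± 0.31 h, -1.80 ± 0.69 h, -0.66 ± 0.53 h and -0.27 ± 0.28 h. The sign of a delay depends on which strand is called the guide, and in miR-42 and miR-67 that was 5p by abundance. The counts of miR-45-3p and miR-44-3p can share reads, so the delays of miR-45 and miR-44 may mix both loci. The passenger miR-67-3p averaged 10.1 CPM, with an amplitude of 0.25 ± 0.15 (edgeR adjusted p = 0.44). Among the 19 hairpins with either strand called the guide's fitted peak was the later one in 15, and among all 89 in 56. These delays were not tested against 0.

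Trends across the window were more common than rhythms. Rising slopes passed the edgeR test in 38 strands (15.6%) and falling slopes in 47 (19.3%). The steepest rise was that of miR-1817, from 6.77 CPM at 25 h to 728 CPM at 35 h, at 0.84 ± 0.03 log2 units per h (adjusted p = 2.84e-08). It stayed low until 29 h (17.6 CPM) and then climbed without a break. miR-85-3p had 664 CPM at 25 h and 30033 CPM at 35 h, a slope of 0.63 ± 0.02 (adjusted p = 2.84e-08), and miR-246-3p had 122 CPM and 6169 CPM, a slope of 0.57 ± 0.03 (adjusted p = 2.31e-07). Rhythm amplitudes of these 3 risers were 0.65 ± 0.14 (adjusted p = 0.019), 0.34 ± 0.10 (adjusted p = 0.084) and 0.25 ± 0.13 (adjusted p = 0.27) in that order, none past the threshold. The call of a rhythm in miR-1817 was gained without the 32 h library (amplitude 0.87).

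The steepest falls were those of miR-247-3p, miR-788-5p and miR-44-5p. miR-247-3p had 135, 147, 129, 133, 110.3, 65.7, 64.0, 50.7, 32.3, 16.5 and 12.3 CPM from 25 to 35 h and a slope of -0.35 ± 0.04 log2 units per h (adjusted p = 3.59e-05), with an amplitude of 0.25 ± 0.17 (adjusted p = 0.47). It held its level until 29 h and then declined at almost every hour. miR-44-5p fell by 0.30 ± 0.05 log2 units per h (adjusted p = 0.0017). That slope missed the threshold without the 34 h library, at -0.28 log2 units per h. Of the 25 rhythmic strands, 5 were called rising, beside 15.6% of all strands, and 10 falling, beside 19.3% of all strands.

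**Figure D5:**
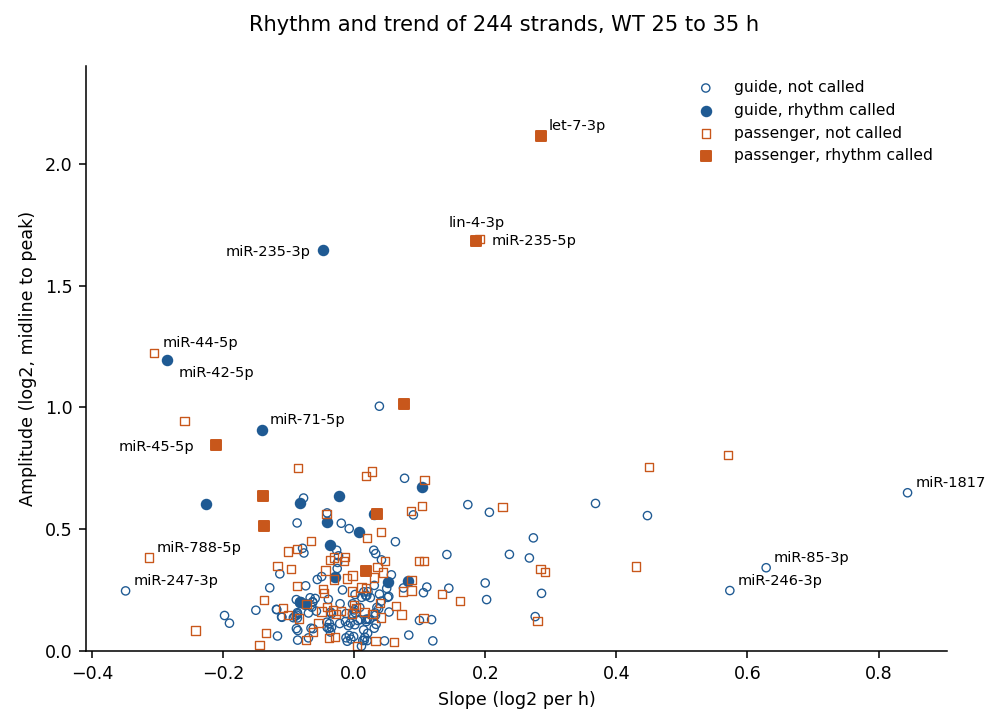
Rhythm amplitude (log2 units) against slope (log2 units per h) for the 244 strands, guides as circles and passengers as squares, filled where the rhythm was called. The 3 steepest risers, miR-1817, miR-85-3p and miR-246-3p, and the fallers miR-247-3p and miR-788-5p are open symbols, while let-7-3p, lin-4-3p and miR-235-3p have the 3 largest amplitudes among the filled symbols.

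None of the guides and none of the passengers of the miR-51, miR-58, miR-72 and miR-2 families or of the miR-64 cluster was called by edgeR (0 of 21 guides and 0 of 21 passengers, beside 10.2% of all strands). At an unadjusted p under 0.05 22 of these 42 strands passed, beside 108 of all 244, and the DESeq2 likelihood ratio test called 6, beside 57 of all 244. The miR-58 family guides, among the most abundant miRNAs of the animal, had a median amplitude of 0.08. miR-240 and miR-786, one cluster on chromosome X, rose in all 4 strands. So did the 4 kept strands of miR-357, miR-358 and miR-359, and the median slope of their 3 guides was 0.27 log2 units per h. Among the 12 hairpins listed as responding to EBAX-1, 7 of 12 guides were rhythmic (beside 11% of all guides) and 1 of 8 passengers was (beside 8.99% of all passengers), with median amplitudes of 0.60 and 0.67. These 7 include miR-788-3p and miR-42-5p, guides by abundance alone, whose partners miR-788-5p and miR-42-3p were not called. The list was drawn up in part from these samples, so its count is no independent evidence.

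By position, rhythmic strands were 8 of 43 on chromosome II, 4 of 21 on chromosome I, 8 of 82 on chromosome X, 2 of 24 on chromosome V, 2 of 35 on chromosome III and 1 of 34 on chromosome IV, beside 10.2% of all strands. Of 21 groups of hairpins within 10 kb on one strand, 7 held a rhythmic strand and 3 held more than 1. Rhythmic strands were 15 of 142 from intergenic hairpins and 9 of 90 from intronic ones. Amplitude fell weakly with abundance across the 244 strands (Spearman's rho −0.19, a description, since strands share libraries and rare strands have larger errors).

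Markers of single tissues were checked beside these rhythms. miR-1-3p, a marker of muscle, ran from 63650.3 to 79495 CPM with an amplitude of 0.11 ± 0.04 (adjusted p = 0.13). miR-124-3p, a marker of sensory neurons, fell by 0.09 ± 0.02 log2 units per h (adjusted p = 0.0014), with an amplitude of 0.15 ± 0.08 (adjusted p = 0.3). lsy-6-3p, the other neuron marker, was rhythmic, as given above. miR-60-3p, a marker of the intestine, had an amplitude of 0.45 ± 0.08 with a peak at 26.3 ± 0.19 h (adjusted p = 0.01), just outside the threshold. Of the embryo and germline markers, the 3p strands of the miR-35 family, miR-36-3p, miR-37-3p and miR-39-3p were rhythmic. Of the 17 listed markers, 16 passed the count filter, all but miR-41-3p. The part of tissue composition in the rhythms was not tested.

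The comparison with 36 to 42 h asked whether the rhythm differs there. The test takes amplitude and peak time together, so a small p alone does not show that a rhythm stops. The interaction of cosine and sine with the window, over the 18 WT libraries, passed an adjusted p of 0.01 in 2 of 244 strands (0.82%), miR-788-3p and miR-45-5p. miR-788-3p had a median of 523 CPM (355 to 735) at 25 to 35 h and 254 CPM (219.7 to 315) at 36 to 42 h, scaled over all 18 libraries. Its amplitude was 0.49 at 25 to 35 h and 0.15 ± 0.10 at 36 to 42 h (adjusted p = 0.0033), lost without the 29, 32, 36, 39 or 41 h library (differences of 0.24 to 0.36), with no filter and with a mean count of at least 50. miR-45-5p had an amplitude of 0.85 at 25 to 35 h and 0.11 ± 0.14 at 36 to 42 h (adjusted p = 0.0058), lost without the 26, 28, 33, 34, 36, 39, 40, 41 or 42 h library (differences of 0.54 to 0.76) and with no filter. lin-4-5p came next, with 0.31 at 25 to 35 h and 0.32 ± 0.08 at 36 to 42 h (adjusted p = 0.011), which was not past the threshold. The call was gained without the 31 or 37 h library, under library totals and under DESeq2 size factors.

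All 25 strands called at 25 to 35 h had a larger fitted amplitude there than at 36 to 42 h, with medians of 0.56 and 0.22, but their choice from the first window fixes part of that direction. Over all 244 strands the amplitude was larger at 25 to 35 h in 153, with medians of 0.23 at 25 to 35 h and 0.17 at 36 to 42 h. The 7 adult hours span a single cycle and their median SE among the 25 strands was 0.14, so rhythms of the size of most guides were not detectable there.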

How the data were processed

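Small RNA libraries (CleanTag kit, single-end) were sequenced by the study. The authors trimmed adapters with QuasR, aligned reads to ce10 with Bowtie, and deposited whole-number read counts per miRBase mature strand for 437 strands, taking same-strand reads that start within 3 bases of the mature 5′ end. Reads with up to 100 hits were kept, so near-identical strands can share reads. Versions of these tools: not given in the sources used here. A deposited normalized table and the mutant columns were not used.

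Counts of the 11 WT libraries were analysed in R 4.3.3. Strands with a mean of at least 10 counts were scaled by TMM and fitted with edgeR 4.0.16 (quasi-likelihood F-test of cosine and sine, period 7 h, with linear time). SEs of amplitude and peak time came from the delta method. Strand ratios were tested with limma 3.58.1, and windows with an edgeR interaction. Alternatives used library totals, DESeq2 1.42.0, other filters, periods and each library left out. Scripts were tested on simulated data. Hairpin positions came from Ensembl WBcel235, and 152 of 155 hairpins were located. No strand sequences were used here.

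The strands named in the text were the 12 guides and 12 passengers (or all, where fewer) with the largest amplitudes among called strands of at least 10 CPM, both strands of 6 hairpins named by the study, the 5 hairpins with the smallest ratio p, the 3 steepest risers and fallers, and the 3 strands with the smallest window p. Strands outside these rules were named after their values were seen. The members, lists and rules were chosen with earlier results of these data known. Reads carried no molecular identifiers, so errors cover scatter between libraries only.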

Additional observations from a re-analysis of the deposited data

Results flagged for a closer look

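In 2 strands the rhythm differed between 25 to 35 h and 36 to 42 h by the test of the difference itself (edgeR interaction, 244 strands tested). That test does not separate a change of amplitude from a change of peak time. For miR-788-3p the adjusted p was 0.00333, with amplitudes of 0.49 at 25 to 35 h and 0.15 at 36 to 42 h. For miR-45-5p the adjusted p was 0.00585, with amplitudes of 0.85 at 25 to 35 h and 0.11 at 36 to 42 h. Both calls were lost without filtering and without the 36, 39 or 41 h library, and that of miR-788-3p also with a mean count of at least 50 (difference in amplitude 0.38). Age and the span of hours sampled change together between the windows and cannot be told apart.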

How the results depend on the processing

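Rhythmic strands numbered 25, and 0 with a period of 6 h (0 guides and 0 passengers; edgeR, 47 strands at an unadjusted p under 0.05), 44 with 8 h (20 of them passengers) and 57 with 9 h (31 guides and 26 passengers, added after seeing the data). The DESeq2 likelihood ratio test called 57 (36 guides and 21 passengers), and an adjusted p of 0.05 gave 70. With each library left out in turn the count was 8 to 32, with 2 to 21 guides and 5 to 12 passengers. Library totals, DESeq2 size factors, no filter, a mean count of 50, limma and a squared time term gave 21 to 29. The strands were not all the same: of the 25 main calls, 17 remained with the squared time term, 18 with no filter and 25 under DESeq2 size factors. Falling strands numbered 31 with a period of 6 h, 58 under library totals and 59 by limma, against 47, and rising strands 31 with a period of 6 h and 52 by the DESeq2 likelihood ratio test, against 38. Hairpins with a rhythmic strand ratio numbered 0 with 6 h (limma, 15 at an unadjusted p under 0.05) and 14 with 8 h, against 8. Strands whose rhythm differed between windows numbered 2, with 8 under library totals, 7 under DESeq2 size factors, 0 with no filter (edgeR, 43 at an unadjusted p under 0.05), and 0 to 3 with each library left out. The cause of these shifts was not tested. No fitted peak of a named strand moved by more than 1.75 h where the strand was called in either fit.

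No paired analysis was possible because each hour has 1 WT library and no second group was compared within an hour. The 11 libraries leave 7 residual degrees of freedom, and a missed threshold in a strand with few counts does not show that it lacks a rhythm. miR-235-5p, for example, was called by the DESeq2 likelihood ratio test (amplitude 1.93) and with periods of 8 and 9 h (2.10 each).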

Other observations

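Some strands just outside the threshold repeat the patterns above. They were chosen after their values were seen. In miR-79 both strands missed the threshold and their fitted peaks fell far apart, at 25.9 ± 0.26 h for the guide miR-79-3p (amplitude 0.41 ± 0.10, edgeR adjusted p = 0.025) and 30.0 ± 0.27 h for the passenger miR-79-5p (amplitude 0.38 ± 0.10, adjusted p = 0.039). By the shorter way around the 7 h cycle, the guide's peak came 2.88 ± 0.37 h after the passenger's, a delay that was not tested. In miR-34, a miRNA known for its part in stress responses, the guide miR-34-5p had an amplitude of 0.18 ± 0.05 (adjusted p = 0.068), against 0.56 ± 0.11 for the passenger miR-34-3p, which peaked at 27.8 h (adjusted p = 0.012).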
